A study of Mus musculus with 18 samples.

Results

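The inflammasome and IL-1 family genes described here are 10 of the 54232 genes in the count table, taken by symbol. They are the sensors Nlrp3 and Aim2, the adaptor Pycard, the caspases Casp1 and Casp4, the pore-forming Gsdmd, the cytokines Il1b, Il18 and Il33, and the receptor antagonist Il1rn. Bulk RNA-seq was done on lacrimal glands (LGs), with 1 gland per library, from male mice of the strains BALB/cJ (BALB/c, the control strain of the study) and NOD.B10Sn-H2b/J (NOD.H-2b). The latter is a NOD strain that carries the H2b haplotype of C57BL/10SnJ in place of the NOD major histocompatibility complex, and it served as a model of chronic LG inflammation in Sjögren's syndrome. Glands were taken at 2, 4 and 6 months (2M, 4M and 6M) in triplicate per strain and age, 18 libraries in 6 groups. Per the study's methods, the 3 libraries of a group are glands of 3 different mice. The strains differ across the whole genome, while all reads were aligned to the C57BL/6J reference, so a difference between them cannot be assigned to the H2 region or to any other locus.

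Inflammasomes are cytosolic complexes in which a triggered sensor recruits the adaptor ASC, the product of Pycard, and through it activates caspase-1. Caspase-1 matures IL-1β and IL-18 and cleaves gasdermin D, whose fragment forms membrane pores. Myeloid cells are their best known site, while IL-33 is stored in nuclei of epithelial, endothelial and stromal cells and is released on damage. In exocrine glands the IL-1 family is known for its part in inflammation and in the inhibition of secretion.

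Between 49480781 and 103936830 counts were obtained per mouse, the most in BALB/c 6M replicate 1 and at most 67138830 in each of the other mice. Levels are given as CPM, counts scaled by the TMM-normalized library size, in the order of replicates 1, 2 and 3. The tissue label was checked against 11 markers of LG acini and ducts, of which 10 or 11 had more than 3 counts in every mouse. Scgb2b7 was the most abundant of them in all 18 mice, and their summed level moved with the strain, from 77517 to 107285 CPM in BALB/c and from 50719 to 73993 CPM in NOD.H-2b. Of the 11, 2 were called lower in NOD.H-2b at each age and 1 higher at 2M and 6M, under the rule given below. The higher one, Krt19, was tested at 2M and 6M only because of its counts in NOD.H-2b. The median log2 fold change over the list was 0.40, -0.09 and -0.35 at the 3 ages. Without Krt19 it was 0.22 at 2M and -0.37 at 6M. Of 5 salivary gland markers, at most 1 had more than 3 counts in any mouse. All members were detected in both strains, but Il1rn had at most 3 counts in each BALB/c mouse.

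The strains were first compared at each age, which asks how the glands of the disease strain differ from the control at the same age. A gene counts as called (a DEG) when edgeR's quasi-likelihood test gave it a Benjamini-Hochberg FDR below 0.05 and it differed by at least 2-fold. At 2M, 9 of the 10 members were higher in NOD.H-2b, where 12% of the 17200 genes tested were called higher and 3.76% lower. The exception was Il18. At 4M and again at 6M, 9 of 10 were higher, against 15.6% of 17722 and 18.8% of 17750 genes, and the exception was Pycard. Lower genes made up 4.72% at 4M and 6.03% at 6M of all genes tested. The number of members called lower was 0 at each age, also with DESeq2's Wald test and at an unadjusted p under 0.05 in edgeR, a limit that 21.4%, 23.2% and 28.6% of all genes passed on the lower side. The median log2 fold change of the members at 2M, 4M and 6M was 1.79, 2.05 and 2.71, beside 0.01, 0.00 and -0.00 for all genes tested. All 10 members passed the filter on low counts at each age, but 3 of them only through NOD.H-2b, since fewer than 3 BALB/c mice reached the filter's cutoff. These were Il1rn and Nlrp3 at each age, Il1b at 2M and Il18 at 4M and 6M (0 BALB/c mice reached it for Il1rn at each age and for Nlrp3 at 6M, and 2 did in the other cases), so that their difference was in part a condition of their test. Of the other 7 members, 6 were called higher at each age, with a median log2 fold change of 1.67, 2.00 and 2.68.

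**Figure D1:**
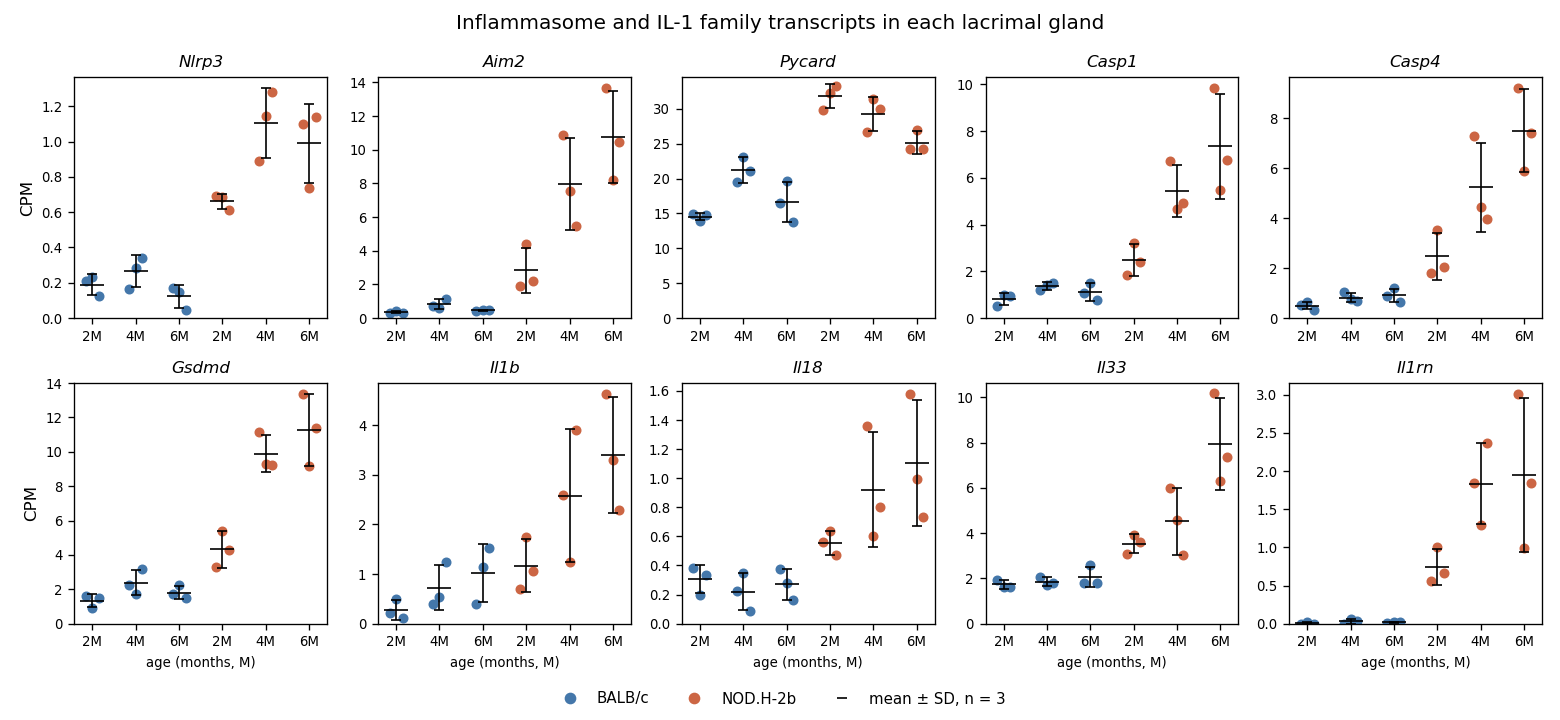
CPM of the 10 members in each of 18 LGs, on linear axes that start at 0 and differ between panels, by age in months and strain (blue, BALB/c; orange, NOD.H-2b). Points are mice, and bars show the mean ± SD of 3 mice. The NOD.H-2b mice lie above all BALB/c mice of the same age in every panel except for Il1b at 4M. How many of all genes separate the 3 mice of each strain in this way was not counted.

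Nlrp3, the sensor that responds to potassium efflux and many forms of cell stress (ENSMUSG00000032691, chromosome 11, 59541568 to 59566956 in GRCm38), had low counts in both strains. In BALB/c it lay at 0.21, 0.233 and 0.123 CPM at 2M, at 0.166, 0.284 and 0.343 at 4M and at 0.172, 0.149 and 0.0468 at 6M. In NOD.H-2b it lay at 0.69, 0.685 and 0.613 CPM at 2M, at 0.893, 1.14 and 1.28 at 4M and at 1.1, 0.735 and 1.14 at 6M. The lowest NOD.H-2b mouse of any age was above the highest BALB/c mouse. The log2 fold change was 1.84 at 2M (SE 0.36, adjusted p = 0.00178 in edgeR's quasi-likelihood test), 2.05 at 4M (SE 0.35, adjusted p = 0.00121) and 2.93 at 6M (SE 0.43, adjusted p = 0.000271). The 2 to 23 counts behind each BALB/c value limit its precision, and the gene was tested only because of its counts in NOD.H-2b.

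Aim2, the sensor of cytosolic double-stranded DNA (ENSMUSG00000037860, chromosome 1, 173350879 to 173466040), had the largest fold change of the members after Il1rn at each age. Its level in BALB/c was 0.325, 0.431 and 0.317 CPM at 2M, 0.719, 0.569 and 1.13 at 4M and 0.44, 0.447 and 0.468 at 6M. Its level in NOD.H-2b was 1.91, 4.38 and 2.2 CPM at 2M, 10.9, 7.54 and 5.45 at 4M and 13.6, 8.23 and 10.4 at 6M. The groups did not overlap at any age, and among NOD.H-2b mice of 2M replicate 2 stood above the other 2 mice. Aim2 was 8.12-fold higher at 2M (log2 3.02, SE 0.36), 9.74-fold at 4M (log2 3.28, SE 0.34) and 24.4-fold at 6M (log2 4.61, SE 0.22). The adjusted p-values in edgeR's quasi-likelihood test were 9.64e-05, 0.000165 and 2.9e-07. The gene overlaps Cadm3 on the other strand, without shared exon bases.

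Pycard, which encodes the adaptor ASC that links sensors to caspase-1 (ENSMUSG00000030793, chromosome 7, 127989708 to 127993867), was the member with the highest level in both strains. BALB/c mice had 14.9, 14 and 14.7 CPM at 2M, 19.4, 23.1 and 21.1 at 4M and 16.5, 19.6 and 13.8 at 6M. NOD.H-2b mice had 29.9, 32.3 and 33.3 CPM at 2M, 26.6, 31.4 and 30 at 4M and 24.2, 27 and 24.3 at 6M. The groups were apart at each age, and the distance between them was widest at 2M. The strain difference was 2.26-fold at 2M (log2 1.17, SE 0.07, adjusted p = 1.86e-07 in edgeR's quasi-likelihood test). It was 1.39-fold at 4M (log2 0.47, SE 0.09, adjusted p = 0.00266) and 1.55-fold at 6M (log2 0.63, SE 0.12, adjusted p = 0.00188 in the same test), under the 2-fold threshold at both ages. Pycard shares 485 exon bases with Gm45205, a gene model on the other strand. The library kit named in the labels does not mark strand, so their reads cannot be told apart.

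Casp1, the protease of the canonical inflammasome (ENSMUSG00000025888, chromosome 9, 5298517 to 5307265), and Casp4, which encodes the sensor of cytosolic lipopolysaccharide known in mice as caspase-11 (ENSMUSG00000033538, chromosome 9, 5308828 to 5336783), are neighbours on the same strand. Casp1 lay at 0.497, 0.969 and 0.935 CPM at 2M, at 1.18, 1.42 and 1.49 at 4M and at 1.07, 1.51 and 0.772 at 6M in BALB/c. In NOD.H-2b it lay at 1.84, 3.2 and 2.39 CPM at 2M, at 6.72, 4.68 and 4.93 at 4M and at 9.84, 5.46 and 6.75 at 6M. All NOD.H-2b mice were above all BALB/c mice, also across ages. The log2 fold change of Casp1 was 1.67 at 2M (SE 0.29, adjusted p = 0.000941 in edgeR's quasi-likelihood test), 2.00 at 4M (SE 0.20, adjusted p = 5.26e-05) and 2.75 at 6M (SE 0.29, adjusted p = 4.85e-05). Casp4 ranged from 0.335 to 1.19 CPM over the 9 BALB/c mice and from 1.82 to 9.21 CPM over the 9 NOD.H-2b mice. Its log2 fold change was 2.35, 2.69 and 3.07 at 2M, 4M and 6M (SE 0.33, 0.28 and 0.24), with adjusted p-values of 0.000203, 7.36e-05 and 4.3e-06 in edgeR's quasi-likelihood test.

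Gsdmd, the pore-forming substrate of both caspases (ENSMUSG00000022575, chromosome 15, 75862327 to 75867408), followed the same order of groups. BALB/c mice had 1.59, 0.916 and 1.52 CPM at 2M, 2.23, 1.75 and 3.18 at 4M and 1.72, 2.24 and 1.47 at 6M. NOD.H-2b mice had 3.27, 5.4 and 4.28 CPM at 2M, 11.2, 9.29 and 9.25 at 4M and 13.4, 9.17 and 11.4 at 6M. No NOD.H-2b mouse fell within the BALB/c range of any age. Gsdmd exceeded its BALB/c level 3.32-fold at 2M, 4.14-fold at 4M and 6.4-fold at 6M, with log2 values of 1.73 (SE 0.25), 2.05 (SE 0.21) and 2.68 (SE 0.19). The adjusted p in edgeR's quasi-likelihood test was 0.000288, 6.51e-05 and 2.29e-06.

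Il1b, the cytokine precursor that caspase-1 matures (ENSMUSG00000027398, chromosome 2, 129364570 to 129371139), spread widely between mice of 1 group. BALB/c mice had 0.21, 0.503 and 0.106 CPM at 2M, 0.406, 0.528 and 1.25 at 4M and 0.386, 1.15 and 1.52 at 6M. NOD.H-2b mice had 0.707, 1.75 and 1.05 CPM at 2M, 2.6, 1.24 and 3.9 at 4M and 4.63, 3.29 and 2.3 at 6M. At 4M the groups overlapped, since BALB/c replicate 3 was just above NOD.H-2b replicate 2. The strain difference was 4.4-fold at 2M (log2 2.14, SE 0.53, adjusted p = 0.0107), 3.47-fold at 4M (log2 1.79, SE 0.55, adjusted p = 0.0362) and 3.6-fold at 6M (log2 1.85, SE 0.48, adjusted p = 0.0127, all from edgeR's quasi-likelihood test). The call at 4M was lost when BALB/c replicate 1 or 2 or NOD.H-2b replicate 1 or 3 was left out, with log2 fold changes of 1.5, 1.60, 1.78 and 1.38. The call at 2M was lost without BALB/c replicate 1 (log2 1.98), and those at 4M and 6M without the filter on low counts (log2 1.78 and 1.85). At 2M, Il1b was tested only because of its counts in NOD.H-2b. Without BALB/c 2M replicate 2 the value at 2M was 2.93, and without BALB/c 4M replicate 3 that at 4M was 2.46. Il1b shares 25 exon bases with the antisense gene Il1bos, and reads from them cannot be told apart.

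Il18, whose product also needs caspase-1 for its maturation (ENSMUSG00000039217, chromosome 9, 50554827 to 50581840), ranged from 0.0895 to 0.382 CPM in BALB/c and from 0.472 to 1.58 CPM in NOD.H-2b. The strains did not overlap at any age. At 2M its 1.88-fold difference missed the threshold (log2 0.91, SE 0.36, adjusted p = 0.0657 in edgeR's quasi-likelihood test). It was called at 4M (log2 2.12, SE 0.51, adjusted p = 0.00727) and at 6M (log2 1.99, SE 0.40, adjusted p = 0.00208). At 4M and 6M, however, Il18 was tested only because of its counts in NOD.H-2b, so its difference was in part a condition of these tests. Il33, a nuclear alarmin that does not need caspase-1 to act (ENSMUSG00000024810, chromosome 19, 29925114 to 29960718), was at 1.95, 1.62 and 1.64 CPM at 2M, 2.06, 1.69 and 1.8 at 4M and 1.79, 2.58 and 1.8 at 6M in BALB/c. In NOD.H-2b it was at 3.09, 3.9 and 3.62 CPM at 2M, 5.99, 4.56 and 3.02 at 4M and 10.2, 6.28 and 7.35 at 6M. BALB/c mice stayed within a narrow range at all ages, below each NOD.H-2b mouse. The log2 fold change of Il33 was 1.07 at 2M (SE 0.17, adjusted p = 0.000431 in edgeR's quasi-likelihood test), 1.30 at 4M (SE 0.25, adjusted p = 0.00206) and 1.99 at 6M (SE 0.22, adjusted p = 4.42e-05). Without NOD.H-2b 2M replicate 2 the value at 2M was 0.98, just under the 2-fold threshold.

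Il1rn encodes the antagonist that binds the IL-1 receptor without signalling (ENSMUSG00000026981, chromosome 2, 24336853 to 24351494). BALB/c mice had 0, 1 and 0 counts at 2M, 0, 3 and 2 at 4M and 1, 1 and 1 at 6M. NOD.H-2b mice had 34, 66 and 42 counts at 2M, 122, 84 and 118 at 4M and 230, 57 and 105 at 6M. The transcript was thus near the limit of detection in every BALB/c gland and measured in every NOD.H-2b gland. With counts summed per group and scaled by library size, the ratio of NOD.H-2b to BALB/c was 123 at 2M (95% interval 21.7 to 4893), 61.1 at 4M (25.9 to 190) and 125 at 6M (42.6 to 610). These exact binomial intervals cover counting error only and do not separate the ages. Its fitted strain differences depend on the prior count, and the gene was tested only because of its counts in NOD.H-2b, so neither these nor their p-values are given.

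**Figure D2:**
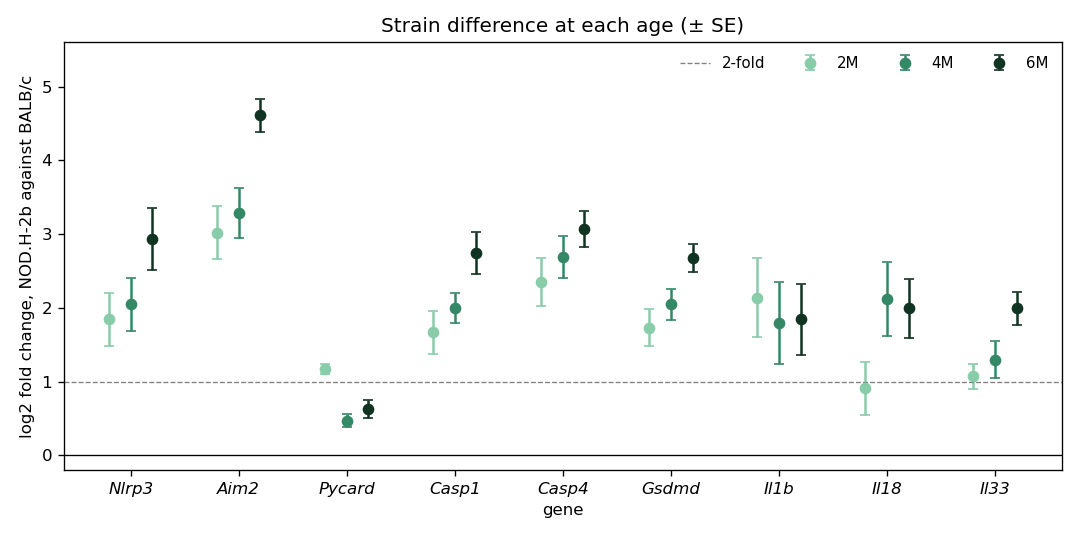
Log2 fold change of NOD.H-2b against BALB/c (y axis) for 9 members (x axis) at 2M, 4M and 6M, with SE bars from fits of 6 mice each; the dashed line is 2-fold, and Il1rn is left out because its BALB/c counts are near 0. Aim2 has the largest values (3.02, 3.28 and 4.61). Below the line are Pycard at 4M and 6M and Il18 at 2M.

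Levels of different genes were compared per length, as TPM over the exon bases of each gene. These bases are the union over all annotated transcripts, 3800 for Pycard, so TPM is too low where the expressed transcript is shorter. The order of genes below depends on this length. In NOD.H-2b at 6M the order was Pycard (7.78 ± 0.873 TPM, SD, n = 3), Casp1 (5.93 ± 2.64), Gsdmd (5.67 ± 1.77), Aim2 (3.7 ± 1.42), Il33 (3.31 ± 1.31), Casp4 (2.43 ± 0.849), Il1b (2.16 ± 1.03), Il18 (1.3 ± 0.69), Il1rn (0.432 ± 0.278) and Nlrp3 (0.29 ± 0.0858). Neighbours in this order differed by less than the larger SD of the pair, apart from Gsdmd and Aim2 and from Il18 and Il1rn. In BALB/c at 6M Pycard (3.7 ± 0.764 TPM) stood apart from Gsdmd (0.643 ± 0.156), Casp1 (0.634 ± 0.227) and Il33 (0.601 ± 0.144), which differed by less than their SDs. Il1b (0.444 ± 0.24), Il18 (0.224 ± 0.0944), Casp4 (0.208 ± 0.0672) and Aim2 (0.108 ± 0.00133) followed, then Nlrp3 (0.0258 ± 0.0146) and Il1rn (0.00279 ± 0.000961), with differences above the SDs from Casp4 downwards. At 6M, Aim2 thus ranked below Il1b, Il18 and Casp4 in BALB/c and above them in NOD.H-2b by mean TPM, though its lead over Casp4 was within its SD. At 4M in BALB/c the mean of Aim2 (0.214 TPM) was above those of Casp4 (0.2) and Il18 (0.188) and below that of Il1b (0.358).

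The ages were then compared within each strain, which asks how the transcripts change as the glands age. Between 2M and 4M, 3 of 10 members rose in NOD.H-2b, namely Gsdmd (2.29-fold, log2 1.20, SE 0.19, adjusted p = 0.00857), Casp1 (2.2-fold, log2 1.14, SE 0.23, adjusted p = 0.0173) and Il1rn (2.46-fold, log2 1.30, SE 0.31, adjusted p = 0.0283, edgeR's quasi-likelihood test). Over all 17763 genes, 5.97% rose and 0.625% fell. The groups of Aim2, Casp4 and Nlrp3 did not overlap either, and their 2.81-fold, 2.13-fold and 1.66-fold differences had adjusted p-values of 0.0604, 0.0652 and 0.0795 in edgeR. DESeq2's Wald test called 5 members, Aim2 and Casp4 among them. With the replicate number as a block, the calls of Gsdmd, Casp1 and Il1rn were lost at similar log2 fold changes (1.22, 1.15 and 1.30). The call of Casp1 was lost without NOD.H-2b 2M replicate 1, 2M replicate 3 or 4M replicate 1 (log2 0.94, 1.10 and 0.93). That of Il1rn was lost without the same mice (log2 1.11, 1.21 and 1.26) and without 4M replicate 3 (log2 1.06). Without 2M replicate 2, the mouse of that age with the highest level of 8 members, 5 members were called, with Aim2 at 1.96 and Casp4 at 1.44.

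From 4M to 6M in NOD.H-2b, 0 members were called by edgeR's quasi-likelihood test or by DESeq2, and 1 had an unadjusted p under 0.05 (Il33, log2 0.82, SE 0.26, adjusted p = 0.321 in edgeR). Of all 18026 genes, 0.00555% rose and 0% fell in that step, and 6.63% had a positive value at an unadjusted p under 0.05. From 2M to 6M, 7 of 10 rose, beside 10.9% of 18008 genes, while 1.55% of all genes fell. The largest changes were those of Aim2 (3.74-fold, log2 1.90, SE 0.38, adjusted p = 0.0126 in edgeR's quasi-likelihood test), Casp4 (3-fold, log2 1.59, SE 0.28, adjusted p = 0.00538) and Casp1 (2.93-fold, log2 1.55, SE 0.27, adjusted p = 0.00499). Il1b, Il1rn, Gsdmd and Il33 rose by between 2.22-fold and 2.87-fold. For Il1rn the groups touched, with 0.998 CPM in NOD.H-2b 6M replicate 2 and 1 CPM in 2M replicate 2, and its call was lost without NOD.H-2b 2M replicate 1 or 3 or 6M replicate 1 or 3 (log2 1.21, 1.31, 0.92 and 1.42). Without NOD.H-2b 2M replicate 3 the count was 4 of 10, with Il1b (log2 1.46) and Aim2 (log2 1.76) no longer called, and without 6M replicate 1 Il33 was at 0.93. Il18 was at 1.97-fold (adjusted p = 0.0377 in edgeR), just under the threshold, and was called without NOD.H-2b 6M replicate 2 or 3 (log2 1.05 and 1.20). Nlrp3 was at 1.48-fold (adjusted p = 0.112 in edgeR). Pycard had a log2 fold change of -0.36 (SE 0.08, adjusted p = 0.00917 in edgeR), with each NOD.H-2b mouse of 6M below each of 2M, a difference under 2-fold. The median over the members was 1.11 for 2M to 4M, 0.35 for 4M to 6M and 1.37 for 2M to 6M (log2), beside 0.01, 0.01 and -0.01 over all genes. These steps share mice, so they are not independent of each other.

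In BALB/c, 0 members were called in any step by edgeR's quasi-likelihood test. Between 2M and 4M, 9 members could be tested, 5 had a positive log2 fold change with an unadjusted p under 0.05, and DESeq2 called 1, Aim2 (edgeR 2.27-fold, log2 1.18, SE 0.36, adjusted p = 0.0504). Of all 16639 genes, 2.07% rose, 0.3% fell and 14.1% had a positive value at an unadjusted p under 0.05. Without BALB/c 4M replicate 2, Aim2 and Gsdmd were called (log2 1.38 and 1.02). Pycard was 1.46-fold higher at 4M than at 2M, with no overlap (log2 0.55, SE 0.08, adjusted p = 0.000796 in edgeR), under the 2-fold threshold. The median over the 9 members was 0.71, beside 0.00 for all genes. From 4M to 6M, 8 members were tested with a median of -0.08, 2 had a negative log2 fold change with an unadjusted p under 0.05, and DESeq2 called 0. Of all 16622 genes 0.018% rose, 0.018% fell and 7.65% had a negative value at an unadjusted p under 0.05. From 2M to 6M, 8 were tested with a median of 0.38, 2 had a positive log2 fold change with an unadjusted p under 0.05, and DESeq2 called 1, Il1b (edgeR 3.59-fold, log2 1.85, SE 0.64, adjusted p = 0.147). Il1b was also called in edgeR without BALB/c 6M replicate 1 (log2 2.26) and without the filter on low counts (log2 1.83), while without BALB/c 2M replicate 2 its value was 2.64 and not called. Of all 16579 genes 1.57% rose, 0.115% fell and 11.5% had a positive value at an unadjusted p under 0.05. Il1rn was left out of these tests at each step by its low counts, as was Nlrp3 in the steps that end at 6M.

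Whether the strain difference itself changed from 2M to 6M was tested as an interaction in 1 fit of all 18 mice, called strain by age. A positive value means a larger rise in NOD.H-2b than in BALB/c. By edgeR's quasi-likelihood test 0 of 10 members were called, beside 3.6% higher and 1.5% lower of 19117 genes. An unadjusted p under 0.05 was found for 4 members with a positive and 1 with a negative value, beside 13.6% and 17.5% of all genes. The 4 were Aim2 (log2 1.60, SE 0.54, adjusted p = 0.0565), Casp1 (1.09, SE 0.41, adjusted p = 0.0769), Gsdmd (0.95, SE 0.35, adjusted p = 0.0692) and Il33 (0.93, SE 0.32, adjusted p = 0.0535 in edgeR). DESeq2's Wald test called Aim2 and Casp1, and edgeR called Aim2 in the 12 mice of 2M and 6M alone. Leaving out 1 mouse gave between 0 and 4 called members, with 4 without NOD.H-2b 6M replicate 2, 3 without NOD.H-2b 2M replicate 2, 2 without BALB/c 6M replicate 2, and 1 without BALB/c 2M replicate 1 or 2 or NOD.H-2b 4M replicate 1 or 3. The 1 negative value was that of Pycard (log2 -0.53, SE 0.14, adjusted p = 0.019 in edgeR), whose strain difference became smaller with age. Without the fold threshold, 7.04% of all genes had an FDR under 0.05 with a positive and 9.09% with a negative value. For Il1b the value was -0.30 with an SE of 0.90, too wide to tell a change in either direction, and it was -1.14 without BALB/c 2M replicate 2. The median over the members was 0.94, beside -0.03 over all genes.

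Markers of leukocytes moved with these results. The 3 markers of leukocytes in general (Ptprc, Coro1a and Laptm5, with Ptprc the most abundant in each mouse) summed to 15.5, 18.3 and 14 CPM in BALB/c at 2M, to 23.3, 24.1 and 44.6 at 4M and to 20.3, 25.9 and 19.8 at 6M. In NOD.H-2b they summed to 67.9, 156 and 113 CPM at 2M, to 476, 289.9 and 280.3 at 4M and to 557, 338 and 431 at 6M. All 3 were called higher in NOD.H-2b at each age. The 12 markers of macrophages and monocytes were all above 3 counts in every mouse, with Lyz2 the most abundant in 15 mice and Mrc1 in the other 3. Their sum was 82.2, 87.5 and 62.1 CPM at 2M, 103, 111 and 172 at 4M and 96.1, 123 and 101 at 6M in BALB/c. In NOD.H-2b it was 251, 285 and 271 CPM at 2M, 413, 391 and 399 at 4M and 511, 409 and 389.5 at 6M. Of the 12, 11 were called higher at 2M, 9 at 4M and 10 at 6M by edgeR's quasi-likelihood test.

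B cell and T cell markers differed by more. The 7 B cell markers summed to at most 2.41 CPM in each BALB/c mouse. At 2M, Ms4a1 and Cd79a were at 0 in BALB/c replicate 1, and Ms4a1, Cd22, Pax5 and Blk in replicate 3. In NOD.H-2b they summed to 1.6, 27.1 and 11.3 CPM at 2M, to 307, 164 and 139.6 at 4M and to 419, 211 and 275 at 6M. The 7 T cell markers summed to at most 4.21 CPM in each BALB/c mouse, and to 6.8, 24.2 and 15.2 CPM at 2M, 90.8, 51 and 49.8 at 4M and 78.1, 57.6 and 73.4 at 6M in NOD.H-2b. At 4M and 6M all 7 of each list were called higher in the NOD.H-2b glands, as were the 3 B cell and 6 T cell markers that could be tested at 2M. Most of them passed the filter only through NOD.H-2b, namely all 9 at 2M, 5 B cell and 7 T cell markers at 4M and 6 and 5 at 6M. The 10 neutrophil markers summed to between 0.44 and 6.87 CPM, Csf3r was the most abundant in each mouse, and Camp and Stfa2 were at 0 in all 18 mice. Csf3r was the only one tested, and it was called higher in NOD.H-2b at each age. Of the 6 mast cell markers 4 could be tested, of which 4 were lower at 4M and 3 at 6M. All 6 summed to 2.36 to 12.9 CPM in BALB/c and 1.94 to 4.47 CPM in NOD.H-2b. The 6 endothelial markers, with Vwf the most abundant in 17 mice, summed to 58 to 74.6 CPM in BALB/c and 95.6 to 129.7 CPM in NOD.H-2b, and 1, 1 and 2 of them were higher at 2M, 4M and 6M, with a median log2 fold change over the 6 of -0.11, 0.16 and 0.59. The median log2 fold change of 6 fibroblast markers was 0.47, -0.36 and 0.02, and that of 5 myoepithelial markers -0.07, -0.24 and -0.17. Of 5 erythroid markers, 2 were higher and 1 lower at 2M and 4M, and 1 and 1 at 6M. Among them, Hba-a2 was tested at each age only because of its counts in BALB/c. The 5 erythroid markers summed to 31.2 ± 4.56 CPM for BALB/c and 62.7 ± 20.7 for NOD.H-2b at 2M without overlap (SD, n = 3). Their groups overlapped at 4M and 6M. The skeletal muscle marker Ckm was called lower at each age, tested only because of its counts in BALB/c. Mylpf, the only other muscle marker tested, was called higher at 4M and tested only because of its counts in NOD.H-2b. The 5 muscle markers summed to at most 1.54 CPM in any mouse. Of 4 adipocyte markers, 4, 3 and 2 could be tested at 2M, 4M and 6M, with a median log2 fold change of 0.05, -0.43 and -0.68. For these cell types, their part in the result was not tested. In whole glands, fewer cells of a type and less RNA per cell cannot be told apart.

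**Figure D3:**
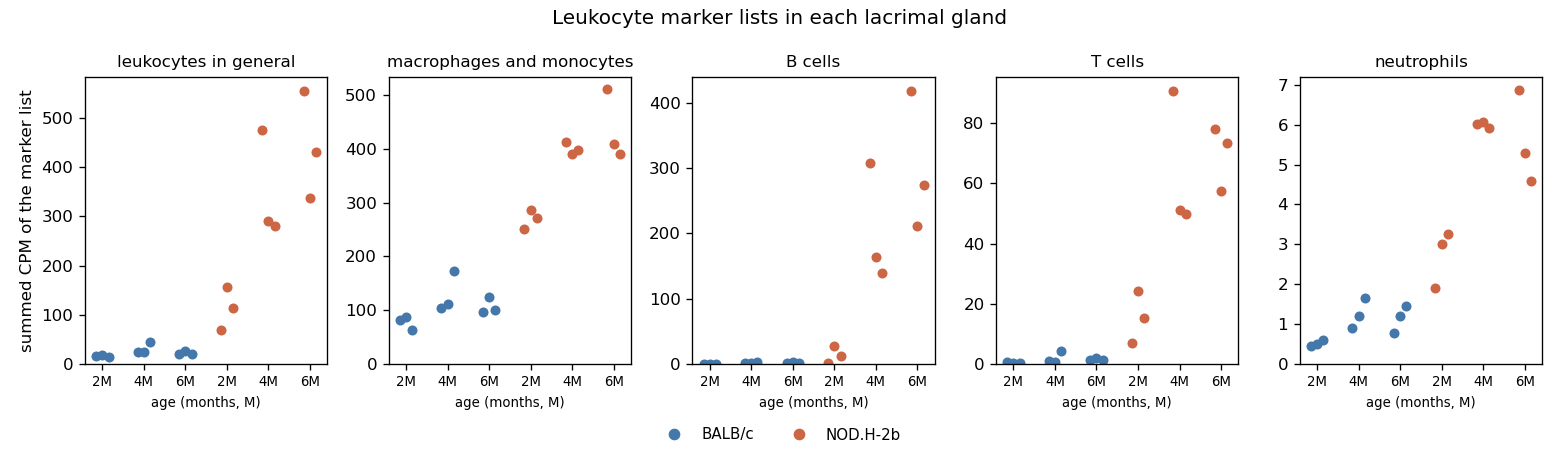
Summed CPM (y axes, linear, from 0 and different between panels) of 5 lists of leukocyte markers in each of 18 LGs, by age in months and strain. In each panel the NOD.H-2b mice of 4M and 6M lie above all BALB/c mice, and the neutrophil list reaches 6.87 CPM at most.

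Within the NOD.H-2b groups, the mouse with the highest leukocyte list (replicate 2 at 2M and replicate 1 at 4M and 6M) had the highest level of 8, 6 and 8 of the 10 members. Nlrp3 and Pycard were highest in another mouse at each age, and so were Il1b and Il1rn at 4M. How many of all genes were highest in the same mouse was not counted, so these counts have no background beside them. As a percentage of the summed CPM of the leukocyte list, 8 of the 10 members had a lower mean in NOD.H-2b than in BALB/c at 2M, 9 at 4M and 8 at 6M. Aim2 stood at 2.24 ± 0.131 and 2.52 ± 0.501 at 2M, 2.66 ± 0.375 and 2.27 ± 0.329 at 4M and 2.08 ± 0.323 and 2.44 ± 0.0148 at 6M (SD, n = 3 each, BALB/c first). Pycard went from 92.5 ± 14.8 in BALB/c to 31.4 ± 11.8 in NOD.H-2b at 2M, from 75.7 ± 25.4 to 9.03 ± 2.98 at 4M and from 75.5 ± 5.88 to 6 ± 1.85 at 6M. Gsdmd at 6M stood at 8.17 ± 0.65 for BALB/c and 2.58 ± 0.165 for NOD.H-2b, and Il33 at 9.28 ± 0.6 and 1.8 ± 0.0829. Il1rn had the higher percentage in NOD.H-2b at each age, with 0.0326 ± 0.0565 and 0.684 ± 0.124 at 2M, 0.107 ± 0.131 and 0.56 ± 0.247 at 4M and 0.0843 ± 0.0326 and 0.421 ± 0.122 at 6M. Against the macrophage list instead, Aim2 at 6M stood at 0.428 ± 0.0571 for BALB/c and 2.45 ± 0.384 for NOD.H-2b, and Nlrp3 at 0.115 ± 0.0663 and 0.229 ± 0.0578. At 2M, Nlrp3 had 0.240% of the macrophage list for BALB/c and 0.247% for NOD.H-2b. Of the 10 members, 5 had a lower percentage of the macrophage list in NOD.H-2b at 2M, 2 at 4M and 4 at 6M. The 4 at 6M were Pycard (15.6 ± 1.78 and 5.86 ± 0.983), Il1b (0.948 ± 0.553 and 0.766 ± 0.161), Il18 (0.259 ± 0.118 and 0.247 ± 0.0604) and Il33 (1.91 ± 0.156 and 1.81 ± 0.242), and of these Pycard alone differed by more than its SDs. These percentages follow from the changes of the members and of each list. They are descriptions, were not tested, and were not computed over all genes.

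Other genes of the pathway were read from a wider list of 68 genes. Of these, 47 had enough counts for a test at 2M, where edgeR's quasi-likelihood test called 17 as higher and 1 as lower in NOD.H-2b. At 4M 22 were higher and 2 lower of 49, and at 6M 24 and 2 of 50. The shares of all genes under this rule were 12%, 15.6% and 18.8% higher and 3.76%, 4.72% and 6.03% lower. The median log2 fold change was 0.38, 0.38 and 0.60, but 0.28, 0.34 and 0.15 over the genes for which all 3 BALB/c mice reached the filter's cutoff. In the sublist of other inflammasome sensors, 6 of 8 were higher at 2M, 7 of 9 at 4M and 7 of 10 at 6M. Of 13 inflammasome regulators, 7, 8 and 8 were higher. In the sublist of other inflammatory caspases, gasdermins and release genes, 2, 3 and 5 of 6 were higher. Of 10 genes for signalling below the receptors (such as Myd88 and Irak4), an FDR under 0.05 was reached in edgeR by 3 higher and 2 lower at 2M, 2 and 2 at 4M and 1 and 3 at 6M, each under 2-fold. Over all genes, the shares under that limit with no fold threshold were 22.5% higher and 17.2% lower at 2M, 23.4% and 19.2% at 4M and 28.6% and 25.8% at 6M. Of the tested genes of the wider list, 3 needed their NOD.H-2b counts to pass the filter at 2M (Il18rap, Nlrp10 and Mefv), 3 at 4M (Il1a, Nlrp1a and Nlrp10) and 7 at 6M (Il1a, Il18rap, Nlrp1a, Nlrp1b, Nlrp10, Nlrc4 and Naip6). Nlrp1b needed mice of both strains, and Il36rn passed only through BALB/c at each age. Of the 44, 46 and 43 genes that passed in BALB/c alone, 14, 19 and 18 were called higher.

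Among the sensors, Nlrc4, which forms an inflammasome with NAIP proteins that bind bacterial flagellin and secretion system parts, was higher in NOD.H-2b at each age. Its level over the 9 BALB/c mice was 0.149 to 0.582 CPM, and over the 9 NOD.H-2b mice 1.04 to 3.16 CPM, without overlap. Its log2 fold change at 2M, 4M and 6M was 2.14, 2.60 and 3.00 (SE 0.30, 0.37 and 0.34). Naip2, Naip5 and Naip6 had log2 fold changes of 2.96, 3.52 and 4.5 at 6M (SE 0.28, 0.26 and 0.36). The NAIP genes are near-identical neighbours on chromosome 13, and how reads with several matches were treated is not given in the sources used here, so their separate counts are uncertain. Mefv, which encodes pyrin, stood at log2 1.67 at 2M and 2.85 at 6M (SE 0.50 and 0.26). Its call at 2M was lost without BALB/c 2M replicate 2 or 3 or NOD.H-2b 2M replicate 2 or 3 (log2 1.41, 1.36, 1.31 and 1.68), and its value was 2.42 without BALB/c 2M replicate 1. Nlrp10 had 2 counts at most in each BALB/c mouse of 2M, and its ratio there was 6.79 (95% counting interval 2.9 to 19.4). All of these genes were called at each age, but Nlrp10 at each age, Mefv at 2M and Nlrc4 and Naip6 at 6M could be tested only because of their counts in NOD.H-2b.

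Among the regulators, Syk, a kinase below immune receptors, had 6.27 to 13.3 CPM in BALB/c and 21.4 to 134 CPM in NOD.H-2b. Its log2 fold change at 2M, 4M and 6M was 2.04, 2.78 and 3.55 (SE 0.13, 0.37 and 0.17). Pstpip1, whose product binds pyrin, had log2 fold changes of 1.96, 2.74 and 4.29 (SE 0.46, 0.33 and 0.26). Nlrc3, a negative regulator of the STING pathway, stood at 3.31, 3.50 and 4.66 (SE 0.41, 0.39 and 0.29), and Tmem173, the gene for STING, at 2.22, 2.70 and 3.24 (SE 0.18, 0.34 and 0.20). Trim30a, a regulator of NLRP3, had 2.99, 3.34 and 4.35, Card9 1.31, 2.29 and 2.25, and Tnfaip3, the gene for the ubiquitin-editing protein A20, 1.11, 1.41 and 1.98 as log2 fold change. Card9 shares 87 exon bases with Gm13562 on the other strand. In the sublist of caspases, gasdermins and release genes, Serpinb1a, an inhibitor of neutrophil serine proteases and inflammatory caspases, had log2 fold changes of 2.17, 3.38 and 4.03 (SE 0.43, 0.31 and 0.28).

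The receptors did not move in 1 direction. Of 9 tested genes for receptors and decoys, 2 were called higher and 1 lower at 2M, and 3 and 1 at 4M and 6M. The subunits of the IL-18 receptor were higher in NOD.H-2b, Il18r1 with 4.14, 7.52 and 6.3 CPM at 2M against 0.65, 0.377 and 0.317 in BALB/c, a log2 fold change of 3.79 (SE 0.31, adjusted p = 1.84e-05 in edgeR's quasi-likelihood test). At 6M Il18r1 was at 3.64 (SE 0.35) and Il18rap at 3.94 (SE 0.35). At 2M and 6M Il18rap was tested only because of its counts in NOD.H-2b. It had 3.97 at 2M (SE 0.92), a call lost without BALB/c 2M replicate 2 or 3 or NOD.H-2b 2M replicate 3 (log2 3.52, 3.60 and 4.07), and its value was 5.37 without BALB/c 2M replicate 1 and 3.29 without NOD.H-2b 2M replicate 2. At 4M it had 2.63 (SE 0.62), not called without NOD.H-2b 4M replicate 1 (log2 2.53) and at 3.83 without BALB/c 4M replicate 3. Il18bp, the secreted decoy of IL-18, had log2 fold changes of 0.76 at 2M (SE 0.21, not called), 1.89 at 4M and 1.99 at 6M (SE 0.21 and 0.16), and reads from its 80 exon bases shared with Numa1 on the other strand cannot be told apart. Il1r2, the decoy receptor of IL-1, was the gene called lower at all 3 ages. It had 3.08, 4.2 and 4.2 CPM in BALB/c and 1.89, 1.89 and 1.73 in NOD.H-2b at 2M, and the log2 fold changes at 2M, 4M and 6M were -1.02, -1.41 and -1.18 (SE 0.17, 0.16 and 0.17). At 2M it fell short of 2-fold without BALB/c replicate 2 or 3 or NOD.H-2b replicate 3 (log2 -0.95, -0.95 and -0.99). Il1r1, the signalling receptor of IL-1, had log2 values of -0.62, -0.68 and -0.60 (adjusted p = 0.000246, 0.000589 and 0.000956 in edgeR), under 2-fold and without overlap between the groups. Il1rl1, the receptor of IL-33, stood at -0.38, -0.79 and -0.67 with adjusted p-values of 0.444, 0.167 and 0.123 in edgeR, which does not show that the strains were alike. Without NOD.H-2b 4M replicate 2 it was called lower at 4M (log2 -1.29).

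Other IL-1 family ligands were sparse. Il1a, which encodes IL-1α, had at most 6 counts in each BALB/c mouse, and 1, 0 and 0 counts at 6M. In NOD.H-2b it had 6, 10 and 18 counts at 2M, 39, 16 and 18 at 4M and 65, 49 and 28 at 6M. The ratio from summed counts at 6M was 136 (95% counting interval 24 to 5416). The gene was tested at 4M and 6M only because of its counts in NOD.H-2b, so its fitted strain differences are not given. Il1a shares 222 exon bases with Gm14023 on the other strand, and their reads cannot be told apart. Il36rn, the antagonist of the IL-36 receptor, went the other way. Its level in BALB/c was 0.516, 0.79 and 0.476 CPM at 2M, 0.885, 1.38 and 1.67 at 4M and 1.06, 0.554 and 1.01 at 6M. NOD.H-2b mice had 0.444, 0.0761 and 0.204 CPM at 2M, 0.0454, 0.216 and 0.0801 at 4M and 0.0523, 0.0175 and 0.0526 at 6M. Each NOD.H-2b mouse was below each BALB/c mouse of the same age, and the gene was called lower at 4M and 6M by edgeR's quasi-likelihood test, and at 2M only without NOD.H-2b 2M replicate 1 or without the filter on low counts. It was tested at each age only because of its counts in BALB/c, and NOD.H-2b had 4, 1 and 3 counts at 6M, so its fitted strain differences are not given. Il1b, Il1a, Il1rn and Il36rn all lie on chromosome 2, and Il36rn (24276954 to 24283426) is close to Il1rn, the antagonist that was higher in NOD.H-2b.

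With age, 9 of 50 tested genes of the wider list rose between 2M and 4M in NOD.H-2b, and 18 between 2M and 6M, beside 5.97% and 10.9% of all genes. The count of 9 was 5 without NOD.H-2b 2M replicate 1, 1 without 2M replicate 3 and 4 without 4M replicate 1. From 4M to 6M, 0 were called by edgeR's quasi-likelihood test or DESeq2 (2 with a positive and 6 with a negative log2 fold change at an unadjusted p under 0.05, a limit that 7.18% of all genes passed with a negative value). Serpinb1a changed most among those named, with 0.542, 1.6 and 1.07 CPM at 2M, 9.37, 7.45 and 4.97 at 4M and 12, 6.46 and 8.36 at 6M, a log2 fold change of 2.76 from 2M to 4M (SE 0.42) and 3.04 from 2M to 6M (SE 0.43). The first of these calls was lost without NOD.H-2b 2M replicate 3 (log2 2.75). In BALB/c 6 of 46 rose from 2M to 4M (2.07% of all genes), with 3 without BALB/c 2M replicate 2 or 4M replicate 2, 1 without 2M replicate 3 and 2 without 4M replicate 3. Il18r1 was among them (log2 2.10, SE 0.41), and its call was lost without 2M replicate 2 or 3 (log2 1.99 and 1.90). From 2M to 6M, Il18r1, Naip2 and Serpinb1a were called without BALB/c 6M replicate 3 (log2 1.97, 1.34 and 1.33) and not with it. In strain by age, 5 of 52 were called with a positive value, Il1a, Il18bp, Pstpip1, Syk and Serpinb1a, and Il36rn with a negative one, beside 3.6% and 1.5% of all genes. Il1a and Il36rn rest on 1 count over the BALB/c and 8 over the NOD.H-2b mice of 6M. The count of 5 was 3 without BALB/c 2M replicate 1 or 2, BALB/c 6M replicate 1 or NOD.H-2b 2M replicate 1, and 2 without NOD.H-2b 6M replicate 1.

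Genes with the most similar pattern over the 18 mice were found for each member called at all 3 ages, by the root mean square difference of centred log2 CPM among 19117 genes. The closest were Myo1g for Aim2 (0.198), Gm43197 and Apbb1ip for Casp4 (0.201 and 0.231), Fam49a for Gsdmd (0.221), Mbnl1 for Il33 (0.221) and Adgre5 for Casp1 (0.251). Cx3cr1 was closest to Nlrp3 (0.311), Gm2427 to Il1rn (0.446) and Gm15513 to Il1b (0.528). The third gene for Casp4 was Naip2 (0.283), itself of the wider list.

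Promoters of 5 of the members called higher at all 3 ages are printed as examples, 1 start each. RefSeq's table for GRCm38.p6 held 14 starts for 9 of the 10 members, and Gsdmd had no entry. The 250 bases before each start were searched on both strands for TTCNNNGAA (the core of the gamma-activated site), GAAA, any 2 bases and GAAA (the core of the interferon-stimulated response element), GAGGAA (the core bound by PU.1), TATAAA (the TATA box) and the NF-kB consensus by name. Over all 32851 promoters of the table, 7.02% held TTCNNNGAA, 2.98% the interferon-stimulated core, 23.3% GAGGAA, 12.4% TATAAA and 3.9% the NF-kB consensus. Of the 14 starts, 0 held either of the first 2 motifs, 4 held GAGGAA, 4 held TATAAA and 3 held the NF-kB consensus, of which 2 are overlapping Casp4 promoters that share the same site. These counts include Pycard and Il18, which were not called at all 3 ages. Il33 and Il1rn were, but their promoters are not printed, nor is the second Nlrp3 start, which held the remaining NF-kB match. Both Il33 starts held TATAAA, while the 3 starts of Il1rn held 0 matches to any of the motifs. Each of the 5 printed promoters holds a match, so they do not stand for all called members. The following run 5′ to 3′ on the strand of the gene, with matches in capitals.

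Nlrp3, chr11:59542436-59542685, plus strand: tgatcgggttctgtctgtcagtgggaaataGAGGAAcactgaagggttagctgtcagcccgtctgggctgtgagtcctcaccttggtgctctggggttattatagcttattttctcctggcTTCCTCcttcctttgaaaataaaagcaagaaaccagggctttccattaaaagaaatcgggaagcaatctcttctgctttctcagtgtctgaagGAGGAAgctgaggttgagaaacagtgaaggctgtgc

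Aim2, chr1:173420354-173420603, plus strand: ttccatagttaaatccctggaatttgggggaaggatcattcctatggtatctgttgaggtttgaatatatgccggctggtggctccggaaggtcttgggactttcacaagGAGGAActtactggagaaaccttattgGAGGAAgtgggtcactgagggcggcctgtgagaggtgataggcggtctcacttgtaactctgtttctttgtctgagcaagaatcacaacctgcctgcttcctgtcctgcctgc

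Casp1, chr9:5298267-5298516, plus strand: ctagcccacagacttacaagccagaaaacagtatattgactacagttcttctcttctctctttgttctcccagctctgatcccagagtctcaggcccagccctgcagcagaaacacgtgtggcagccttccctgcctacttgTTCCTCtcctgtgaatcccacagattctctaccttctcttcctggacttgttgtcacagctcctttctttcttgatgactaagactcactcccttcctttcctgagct

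Casp4, chr9:5308599-5308848, plus strand: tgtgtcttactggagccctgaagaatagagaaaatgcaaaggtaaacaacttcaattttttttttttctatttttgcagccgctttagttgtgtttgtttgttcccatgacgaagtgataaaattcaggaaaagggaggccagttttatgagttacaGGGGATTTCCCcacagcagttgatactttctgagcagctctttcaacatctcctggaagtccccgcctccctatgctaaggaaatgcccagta

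Il1b, chr2:129371140-129371389, minus strand: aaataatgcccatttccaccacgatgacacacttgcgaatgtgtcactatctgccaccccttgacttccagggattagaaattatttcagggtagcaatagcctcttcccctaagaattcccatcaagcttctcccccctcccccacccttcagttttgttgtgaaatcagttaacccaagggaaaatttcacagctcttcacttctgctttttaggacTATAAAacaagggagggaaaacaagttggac

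Nlrp3 held 3 matches to GAGGAA, 1 of them as TTCCTC on the other strand, Aim2 held 2, and Casp1 held 1, also as TTCCTC. The capitals in Casp4 are 3 overlapping matches to the NF-kB consensus, the first starting 93 bases before the start of the transcript. In Il1b the TATA box begins 31 bases before the start. A match shows these letters only, and binding was not measured.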

How the data were processed

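Ribosomal RNA was removed from the total RNA of each LG before paired-end sequencing. Per the submitters' notes and the paper's methods, the authors used cutadapt for trimming, STAR for alignment to GRCm38 and HTSeq for counting. The deposited raw counts per Ensembl gene were used. A second deposited table of normalized values was not used. Whether strand was used, and how multi-mapping reads were counted, is not given in the sources used here.

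R 4.3.3 with edgeR 4.0.16 was used for TMM normalization, filterByExpr and the robust quasi-likelihood test on the 6 mice of each comparison, or all 18 for strain by age, with adjustment over all genes tested. Each SE was derived from the F statistic. DESeq2 1.42.0 was an alternative. The steps were tested on simulated data. Coordinates and exon lengths were taken from GENCODE M21 for the 54165 genes (of 54232) found there. TPM was computed from the counts and exon lengths.

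The 10 members and all lists were chosen with earlier results of these data known. Named genes are the members, genes of the wider list called in 1 direction at all 3 ages or in strain by age, and Il1a, Il1r1, Il1r2, Il1rl1, Il18r1 and Il18bp in any case. The values of 1 marker gene are not reported here. For similar patterns, the 3 closest genes were taken per member called at all 3 ages. The spread between 3 mice limits the precision, as do the low BALB/c counts of Nlrp3, Il18 and Il1rn. Alternatives were other normalizations, filters, tools, thresholds and samples, the replicate number as a block, and leaving out each mouse.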

Additional observations from a re-analysis of the deposited data

Results flagged for a closer look

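In strain by age, the test of whether the strain difference changed from 2M to 6M, the named genes below had an adjusted p under 0.05 in edgeR's quasi-likelihood test over 18 mice, which is what marked them for a closer look. Genes of the wider list were named in part for passing this test, so their number has no meaning of its own. Under this limit, with no fold threshold, the 10 members had 0 positive and 1 negative value and the wider list 7 and 7 of 52, beside 7.04% and 9.09% of all 19117 genes. Pycard had a log2 value of -0.53 (adjusted p = 0.019) and Tnfaip3 one of 0.88 (adjusted p = 0.00407), both under 2-fold. Il18bp stood at 1.23 (adjusted p = 0.013), Syk at 1.52 (adjusted p = 0.0196), Pstpip1 at 2.33 (adjusted p = 0.0238) and Serpinb1a at 1.87 (adjusted p = 0.0446). Il1a stood at 5.77, a fitted value that depends on the prior count because BALB/c had 1 count in all at 6M, and its strain difference at 2M could not be tested, so no change is read from it. Without BALB/c 6M replicate 1, the mouse with that count, it was 7.49. Il36rn stood at -3.03, a value that rests on 1 to 4 counts per NOD.H-2b mouse at 6M and is not read as a change either. The call of Il36rn and that of Syk were lost without NOD.H-2b 2M replicate 1 or 6M replicate 1 (log2 -2.26 and -3.27, and 1.40 and 1.32). That of Pstpip1 was lost without BALB/c 2M replicate 1 or 2, BALB/c 6M replicate 1 or 2 or NOD.H-2b 6M replicate 1 (log2 2.14, 2.06, 2.30, 2.18 and 2.15). That of Serpinb1a was lost in 13 of the 18 fits that leave out 1 mouse (log2 1.56 to 1.95).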

How the results depend on the processing

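Of 4923 log2 fold changes of named genes under an alternative, 0 called values changed sign, and 80 crossed 0 with no call. Other scalings moved the median of all genes by less than 0.1. Most counts below differ from those of the report by over 1.5 times, the others are given to complete a range or series, and beyond fewer genes or samples in the fit the cause was not tested.

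Against a 2-fold null (edgeR's glmTreat), 5 members were called higher at 2M, with Il1b, Il33, Nlrp3 and Casp1 lost, 6 at 4M, with Il1b, Il18 and Il33 lost, 8 at 6M, with Il1b lost, and 0 between 2M and 4M or 6M in NOD.H-2b. In the wider list this left 0 lower at 2M and 1 at 6M, 0 higher from 2M to 4M in either strain, 2 higher from 2M to 6M in NOD.H-2b, and 0 higher and 0 lower in strain by age. With no filter, the wider list had 2 lower at 2M, 1 lower from 4M to 6M and 2 higher from 2M to 6M in BALB/c, 1 lower from 2M to 6M in NOD.H-2b and 3 higher in strain by age, and BALB/c had 2 members higher from 2M to 4M and 1 from 2M to 6M. With at least 10 counts in every mouse, 1 gene of the wider list was lower at 4M and 1 at 6M, 0 were lower in strain by age, and 1 member was higher from 2M to 4M in BALB/c. DESeq2 called 1 member from 2M to 4M and 1 from 2M to 6M in BALB/c, 5 from 2M to 4M in NOD.H-2b and 2 in strain by age, and 1 gene of the wider list from 2M to 6M in BALB/c.

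With no fold threshold, the wider list had 4, 8 and 12 lower at 2M, 4M and 6M. From 2M to 4M it then had 13 higher and 2 lower for BALB/c and 15 higher and 1 lower for NOD.H-2b, between 2M and 6M 6 higher in BALB/c and 8 lower in NOD.H-2b, and 7 lower in strain by age. Of the members, 1 was then higher at 4M than at 2M in BALB/c, and 1 (Pycard) was lower from 2M to 6M in NOD.H-2b and in strain by age. In 1 fit of all 18 mice, 5 members rose from 2M to 4M in NOD.H-2b. In that fit 3 genes of the wider list rose from 2M to 4M in BALB/c, 1 rose and 1 fell there from 2M to 6M, and 1 fell from 2M to 6M in NOD.H-2b. The 12 mice of 2M and 6M alone gave 1 member in strain by age.

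Leaving out 1 mouse gave 8 to 9 members higher at 2M and 4M and 9 at 6M. It gave 0 to 2 from 2M to 4M and 0 to 1 from 2M to 6M in BALB/c, 1 to 5 and 4 to 8 in NOD.H-2b, and 0 to 4 in strain by age. For the wider list it gave 0 to 2 lower at 2M, 1 to 6 and 0 to 3 higher in BALB/c, 1 to 10 and 12 to 21 higher in NOD.H-2b with 0 to 1 lower from 2M to 6M, and 2 to 7 higher and 0 to 1 lower in strain by age.

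The replicate numbers were taken as names and not as pairs. Same-numbered mice had correlations of their deviations between -0.34 and 0.33. Each mouse correlated best with its own number for the strain difference at 2M and from 2M to 6M in BALB/c, but not in any other comparison. With 3 mice per group this check cannot exclude a shared batch. With the replicate block, 9, 9 and 8 members were higher at 2M, 4M and 6M, 0 rose from 2M to 4M and 5 from 2M to 6M in NOD.H-2b. With the replicate block, the wider list had 3 higher between 2M and 4M and 1 between 2M and 6M in BALB/c, and 1 from 2M to 4M in NOD.H-2b.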
